A study of Mus musculus with 79 samples.

Results

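EGCG (epigallocatechin gallate, the most abundant catechin of green tea) was compared with its solvent DMSO in mouse Th17 cells grown under pathogenic conditions (Th17p) and sorted after exactly 1 division (Div.1). The comparison rests on 9 of the 79 libraries of the series: 5 with EGCG at 20 µM, from wells 1 to 5 of one plate row, and 4 with DMSO, from wells 1, 2, 3 and 5 of another. Both groups were T cells labelled before culture with the division dye CFSE, whose fluorescence is shared out between daughter cells, and both were grown with IL-6, IL-1b and IL-23. The design gives 5 mice per condition, and the labels do not say which mouse gave which library. Mouse strain, age and sex were not given in the sources used here. The 3 other contrasts used below were EGCG against DMSO in unsorted Th17p cells (Total, 5 libraries each), EGCG against DMSO in Div.1 cells of the non-pathogenic type (Th17n, grown with TGFb and IL-6, 5 and 4 libraries), and DHEA at 50 µM against its solvent methanol in Th17p Div.1 cells (5 libraries each).

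Th17 cells are helper T cells that make IL-17A, IL-17F and IL-22. IL-23 acts on them through the receptor chain Il23r and is needed for their pathogenic form, which drives tissue inflammation in autoimmune disease. The tumour suppressor p53 is held low by the ubiquitin ligase Mdm2, and when it accumulates it switches on genes that stop the cell cycle, such as Cdkn1a, and genes that prepare cell death, such as Bax. T cell receptor signals switch on another set, among them Il2, Cd69 and ligands of the TNF family.

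The library of well A4 stood between the DMSO wells but carried the label of Th17n DMSO Div.1 cells, and it was left out. Its values went against that label: Foxp3, a gene of regulatory T cells and of the Th17n libraries, was at 0.394 TPM in it, against 71.5 to 136 TPM in the other Th17n DMSO Div.1 libraries. In the 9 libraries used, the TPM columns summed to between 890929 and 894657, 9433 to 9774 genes were at 1 TPM or more, and 7.06% to 7.38% of a library came from its 10 leading genes. Correlations across genes were 0.989 to 0.993 between libraries of a group and 0.971 to 0.981 between an EGCG and a DMSO library. TPM, a length-scaled share of a library's transcripts, keep no read number, so the depth is unknown and intervals for counting error cannot be had. The libraries carried the T cell genes of their label, such as Cd4, which was at 181 ± 3.97 TPM with EGCG and 116 ± 8.13 TPM with DMSO (SD, n = 5 and 4), and the Th17 genes Il17f and Il22. Markers of CD8 T and NK cells summed to 26.8 to 38.7 TPM with EGCG and 17.3 to 23.2 TPM with DMSO, and 3 of the 8 tested members of 15 were higher with EGCG (against 33.7% of all genes tested): Nkg7, Ccl5 and Cd8b1, the last not after rescaling (adjusted p = 0.139) nor on leaving out each of 5 single libraries (adjusted p up to 0.0729). Cd8a stayed at or below 0.272 TPM and Gzma was at 0 in all 9. B cell markers summed to 2.40 to 3.17 TPM with EGCG and 1.73 to 2.20 TPM with DMSO, and myeloid markers to 1.79 to 2.85 TPM with EGCG and 0.660 to 2.66 TPM with DMSO, with 6 myeloid markers, Lyz2 among them, at 0 in all 9. The part of other cells in the changes below was not tested. In bulk RNA, fewer cells of a type and less RNA per cell cannot be told apart.

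EGCG changed many genes, most of them by little. Changes are differences of log2(TPM + 1), EGCG minus DMSO, and calls are those with an adjusted p under 0.05 in limma's moderated test over all 10672 genes kept (4 or more libraries of the series at 1 TPM or above). Of these, 4871 (45.6%) were called, 3601 (33.7%) higher and 1270 (11.9%) lower with EGCG. Of the called genes, 393 were at least 2-fold higher and 70 at least 2-fold lower on this scale, and over all genes 5% lay below -0.41 and 5% above 0.90. The median of all genes was 0.12. A list median near that value shows no net shift beyond genes in general, though single members can have moved both ways. The gene lists below were chosen with earlier results of these data known, so their counts describe these libraries and are no independent test. Each count stands against the 33.7% and 11.9% of all genes called higher and lower. The EGCG and DMSO libraries did not overlap for 38.7% of all genes tested, so a lack of overlap was common. Rescaling each library by its median ratio to the mean library moved the median of all genes by -0.10, to 0.02, and gave 2430 increases and 2241 decreases, so the unequal split moved with the scaling.

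**Figure D1:**
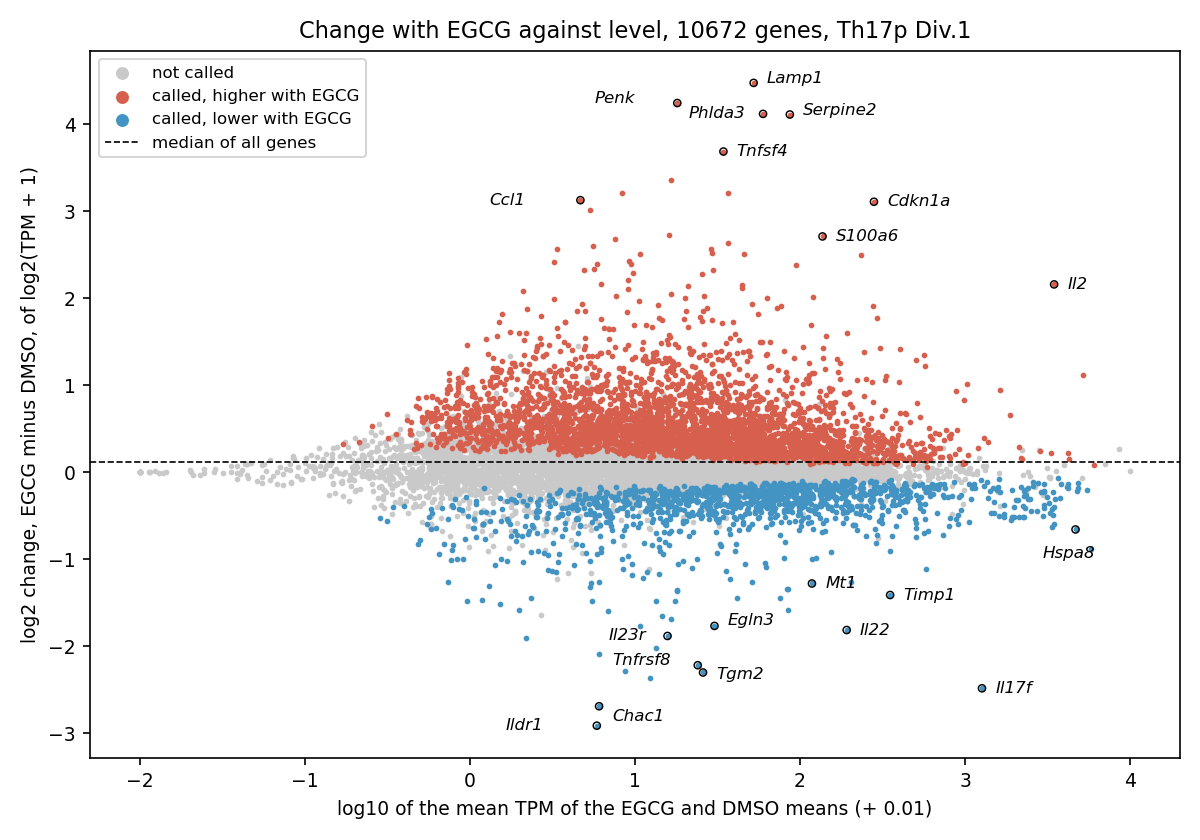
Each point is 1 of the 10672 genes tested in Th17p Div.1 cells, by its level (x axis, log10 of mean TPM) and its change with EGCG (y axis, EGCG minus DMSO in log2(TPM + 1)); red genes were called higher, blue lower and grey not called, and the dashed line is the median of all genes at 0.12. Serpine2, Tnfsf4 and Cdkn1a stand far above the cloud and Il17f, at 384 TPM with EGCG and 2149 TPM with DMSO, far below it.

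Il17f, Il22 and Il17a, the cytokine genes that define Th17 cells, fell, while Il2, Il3 and Tnf, of general T cell activation, rose. Il17f (chromosome 1, 20777146 to 20790617, minus strand, mm10) was at 403, 329.8, 355, 452 and 382 TPM in the EGCG libraries, against 2137, 2379, 2007 and 2074 TPM in the DMSO libraries. No EGCG library came within 4-fold of a DMSO library, and the mean was 5.59-fold lower with EGCG (log2 change -2.49, 95% interval -2.90 to -2.07, adjusted p = 2.87e-16). Il22 (chromosome 10, 118204942 to 118210047, plus strand), a cytokine that acts on epithelia, was at 63.4, 104, 99.3, 109 and 54.4 TPM with EGCG and 265, 380.1, 280.4 and 264 TPM with DMSO. Those groups did not overlap either, and the mean was 3.46-fold lower (log2 change -1.82, 95% interval -2.69 to -0.94, adjusted p = 0.000419). Il17a was the more variable of the pair of IL-17 genes, at 24.6, 44.5, 16.3, 18.1 and 11.7 TPM with EGCG and 47.6, 67.2, 44.95 and 79.2 TPM with DMSO. Its highest EGCG library, replicate 2, stood just under the lowest DMSO library (log2 change -1.44, 95% interval -2.38 to -0.51, adjusted p = 0.00883). Il24, a cytokine of the IL-10 family, lay at 0.245, 0.503, 0.247, 0.610 and 0 TPM with EGCG and 2.85, 2.78, 5.09 and 5.34 TPM with DMSO (log2 change -1.90). Of the 10 effector cytokine genes tested from a list of 12, 5 fell and 2 rose, with a median of -0.53.

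The 2 that rose were Il3, a growth factor for myeloid cells and mast cells, and Tnf. Il3 was at 51.2, 46.4, 55.5, 59.3 and 37.9 TPM with EGCG and 15.5, 5.996, 9.77 and 7.25 TPM with DMSO, 5.19-fold higher in the mean (log2 change 2.33, adjusted p = 2.38e-08). Tnf was at 192, 180.4, 168, 172 and 161 TPM with EGCG and 108, 88.2, 84.5 and 84.5 TPM with DMSO, and the lowest EGCG value was above the highest DMSO value. Il21, chosen after its values were seen because it is the remaining abundant Th17 cytokine, had nearly the same mean in both groups (38.1 ± 9.90 TPM with EGCG and 38.1 ± 4.28 TPM with DMSO, log2 change -0.03, 95% interval -0.31 to 0.25). Il10, the anti-inflammatory cytokine, did not pass 0.358 TPM in any library. Csf2 and Ifng, genes of the pathogenic and Th1 programmes, were below the filter: Csf2 reached at most 0.109 TPM with EGCG and 0.0906 TPM with DMSO, and Ifng at most 0.679 TPM with EGCG and 0 TPM with DMSO.

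**Figure D2:**
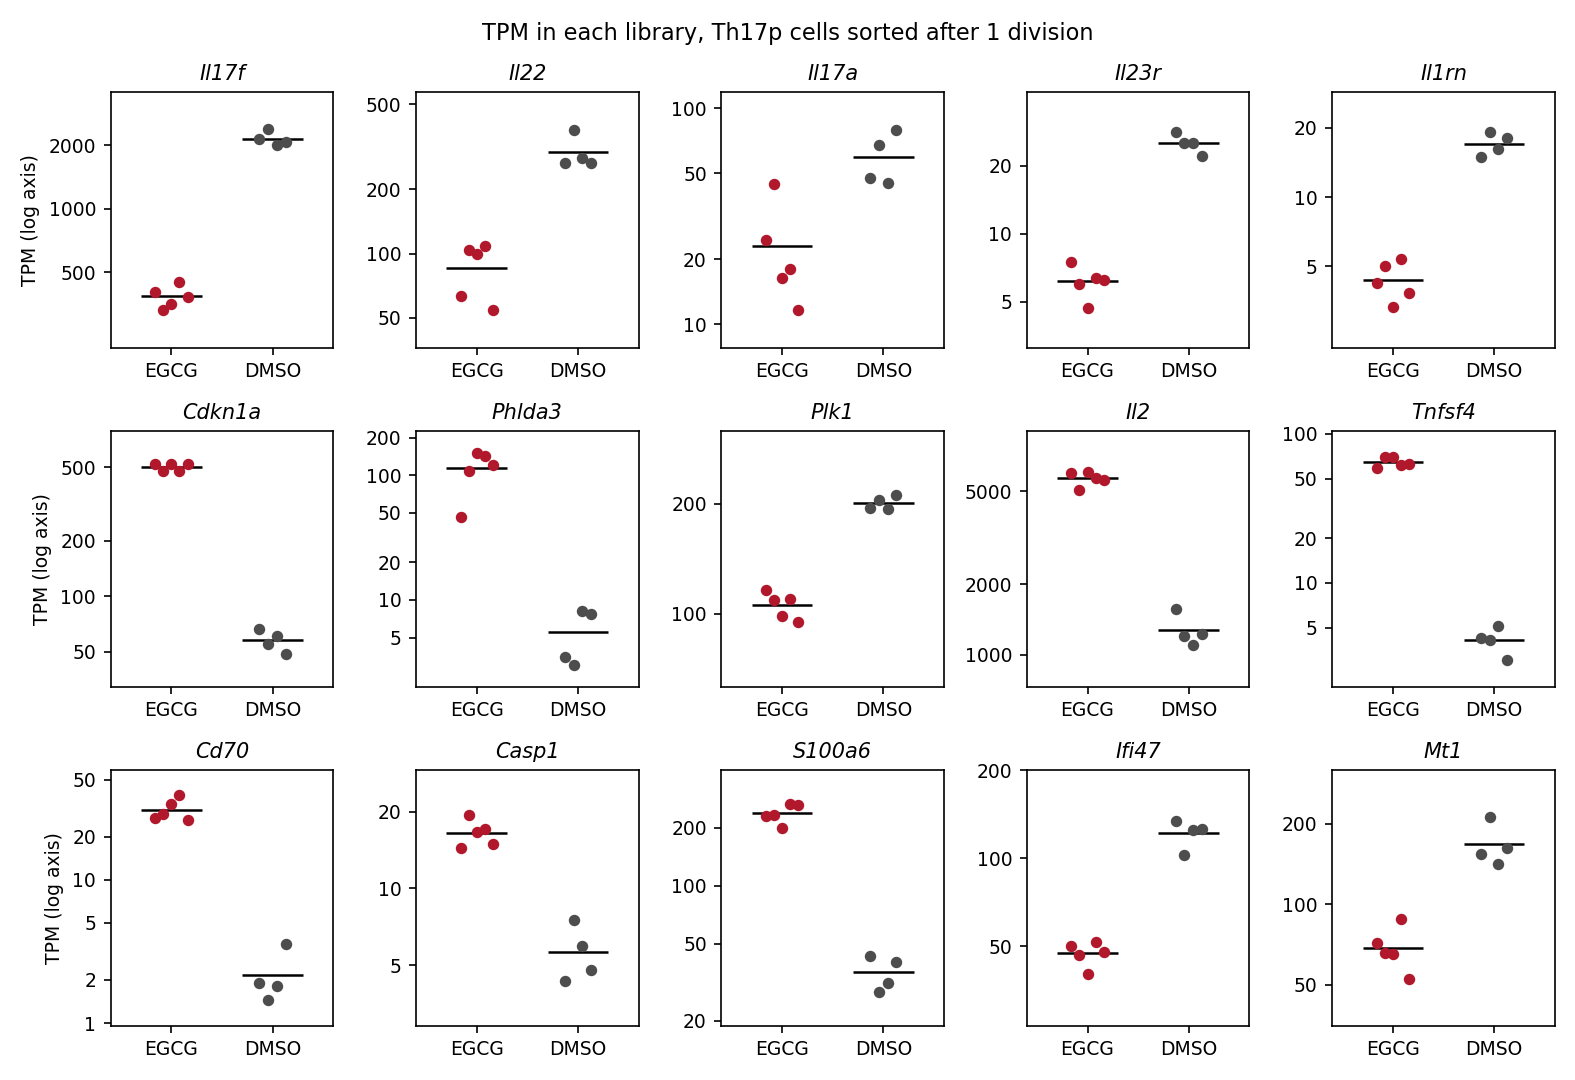
TPM of 15 genes in each of the 5 EGCG libraries (red) and the 4 DMSO libraries (grey) on log axes, with the mean of each group as a bar. The groups do not overlap for any gene shown, as was so for 38.7% of all genes tested. Il17f lies between 329.8 and 452 TPM with EGCG and between 2007 and 2379 TPM with DMSO. Cdkn1a lies between 476 and 523 TPM with EGCG and between 48.6 and 66.2 TPM with DMSO.

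Among receptors and transcription factors of Th17 cells, the IL-23 receptor chain fell, and so did the factors Irf4, Maf and Ahr. Il23r (chromosome 6, 67422932 to 67491855, minus strand) was at 7.50, 5.98, 4.68, 6.39 and 6.24 TPM with EGCG and 28.4, 25.3, 25.4 and 22.2 TPM with DMSO, 4.11-fold lower in the mean (log2 change -1.88, SE 0.199, adjusted p = 2.29e-12). Sgk1, a kinase that acts downstream of the IL-23 receptor, averaged 4.01 ± 1.23 TPM with EGCG and 8.39 ± 1.70 TPM with DMSO (SD, n = 5 and 4; log2 change -0.92). Irf4, a transcription factor that Th17 cells need, was lower (116 ± 2.58 TPM with EGCG and 153 ± 4.83 TPM with DMSO, log2 change -0.39). Maf and Ahr were both at under 2 TPM and lower with EGCG, Ahr at 0.763, 0.511, 0.510, 0.294 and 0.886 TPM with EGCG and 1.28, 1.59, 1.85 and 1.23 TPM with DMSO. Nfkbiz, a nuclear NF-kB cofactor, and Runx1 rose (log2 changes 0.87 and 0.53). Of the 20 genes of this list, 7 fell and 2 rose, against 11.9% and 33.7% of all genes.

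Genes of the IL-1 and IL-18 pathway, which works beside IL-23 in pathogenic Th17 cells, fell more often than genes in general. Of 14 tested, 5 rose and 7 fell, against 33.7% and 11.9% of all genes, so the rises were near the general share. Il1rn, whose product blocks the IL-1 receptor, was at 4.22, 5.02, 3.31, 5.38 and 3.81 TPM with EGCG and 14.9, 19.1, 16.2 and 18.1 TPM with DMSO, 3.93-fold lower in the mean (log2 change -1.77, SE 0.302, adjusted p = 1.47e-06). Casp1, the protease that matures IL-1b and IL-18, went the other way, at 14.4, 19.4, 16.7, 17.1 and 14.9 TPM with EGCG and 4.34, 7.52, 5.91 and 4.76 TPM with DMSO (log2 change 1.42, adjusted p = 1.12e-09). The decoy receptor gene Il1r2 was called higher at a low level, with overlap between the groups (3.36 ± 1.06 TPM with EGCG and 0.896 ± 1.14 TPM with DMSO). Myd88, the adaptor of both receptors, fell to 75.8 ± 6.32 TPM with EGCG, against 121 ± 5.06 TPM with DMSO, and Il18rap, a chain of the IL-18 receptor, fell by 0.93 in log2.

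The Th1 list had 1 rise and 6 falls among 12 genes, against 33.7% of all genes called higher and 11.9% called lower. Il12rb2, a chain of the IL-12 receptor, was at 22.6, 17.3, 22.96, 23.7 and 24.7 TPM with EGCG and 52.1, 48.3, 52.3 and 59.99 TPM with DMSO (log2 change -1.23). Stat4, which relays IL-12 and IL-23 signals, was at 63.2, 74.1, 73.5, 73.1 and 71.1 TPM with EGCG and 33.6, 36.8, 35.2 and 35.3 TPM with DMSO (log2 change 0.99, adjusted p = 2.27e-10), so a receptor chain and its signal relay moved in opposite directions. Tbx21, the master factor of Th1 cells, overlapped between the groups (30.8 ± 3.32 TPM with EGCG and 33.3 ± 6.20 TPM with DMSO, log2 change -0.10, 95% interval -0.49 to 0.29). Foxp3 was near 0 throughout, at most 0.5003 TPM with EGCG and 0.766 TPM with DMSO. Among 14 genes linked to regulatory T cells, 5 rose and 3 fell, with a median of 0.04 (-0.01 after rescaling). Those that rose included the surface receptors Ctla4 (0.94), Tnfrsf18 (1.06) and Nrp1 (1.10), which activated T cells also carry, and those that fell included Ikzf4 (-1.14) and the cytokine signalling inhibitor Socs2 (4.63 ± 0.503 TPM with EGCG and 22.2 ± 4.28 TPM with DMSO, log2 change -2.03).

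A reported signature of pathogenic Th17 cells had 9 of its 15 tested genes higher with EGCG and 1 lower, and a median of 0.78. The 1 that fell was Il22, which is also on the cytokine list. Those that rose included Il3, Casp1, Stat4 and Lgals3, which encodes galectin-3 (14.7 ± 4.04 TPM with EGCG and 3.28 ± 0.223 TPM with DMSO, log2 change 1.84). Of 7 genes on the non-pathogenic list, 0 rose and 5 fell, with a median of -0.65: Il1rn, Ikzf3 (-0.93), Maf (-0.54), Ahr (-0.65) and Il9 (-1.03). All of these except Il1rn averaged under 10 TPM in both groups, so these log2 values understate the change in TPM. The call of Il9 was lost on leaving out each of 4 single libraries (adjusted p up to 0.0827), and those of Il9 and Maf were lost with well A4 as labelled (adjusted p = 0.247 and 0.182). That run puts A4 in the Th17n DMSO Div.1 group, outside this contrast. It left both log2 changes as they were and raised the SE, for Maf from 0.125 to 0.327.

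Genes that p53 activates rose almost throughout. Of 36 tested from a list of 40, 32 rose and 1 fell, with a median of 1.45 against 0.12 for all genes. This list too was chosen with earlier results of these data known, so the counts are no independent test. Cdkn1a (chromosome 17, 29090976 to 29100727, plus strand), which encodes the cyclin-dependent kinase inhibitor p21, was at 519.6, 477, 523, 476 and 520.3 TPM with EGCG and 66.2, 55.4, 61.3 and 48.6 TPM with DMSO. The EGCG libraries lay within 50 TPM of each other, and the mean was 8.70-fold higher (log2 change 3.11, SE 0.177, adjusted p = 8.54e-24). Phlda3, an inhibitor of the kinase Akt, was at 46.5, 109, 151, 142 and 121 TPM with EGCG and 3.47, 3.03, 8.10 and 7.72 TPM with DMSO. Replicate 1 was the lowest EGCG library and was still well above every DMSO library (log2 change 4.12, 95% interval 3.49 to 4.74). Plk2, a kinase induced by stress, was at 47.2, 48.6, 46.7, 56.7 and 50.6 TPM with EGCG and 9.86, 8.40, 7.29 and 5.37 TPM with DMSO (log2 change 2.57, adjusted p = 6.43e-20). Zmat3, which encodes an RNA-binding protein, averaged 34.6 ± 1.06 TPM with EGCG and 7.08 ± 0.695 TPM with DMSO, and Sulf2, a sulfatase of heparan sulfate, 6.43 ± 1.39 TPM with EGCG and 0.243 ± 0.127 TPM with DMSO (SD, n = 5 and 4).

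Mdm2, the negative regulator and target of p53, was at 97.9, 78.9, 104, 86.4 and 96.96 TPM with EGCG and 41.9, 26.8, 54.1 and 38.05 TPM with DMSO (log2 change 1.22, adjusted p = 8.1e-09). Trp53 itself, the p53 gene, was slightly lower, with overlap between the groups (274 ± 9.26 TPM with EGCG and 297 ± 9.71 TPM with DMSO, log2 change -0.12, adjusted p = 0.0122). The 1 list member that fell was Ckap2, a spindle protein gene (log2 change -0.46), named after its value was seen. Among death genes, also named after their values were seen except Bax, the BH3-only genes Pmaip1 and Bbc3 rose by 2.21 and 1.73 in log2 and the death receptor gene Fas by 1.50. Bax, which opens the mitochondrial outer membrane, was at 747, 836, 815, 836 and 769 TPM with EGCG and 309, 359.8, 355 and 347 TPM with DMSO, 2.34-fold higher in the mean. In a separate list of 25 regulators of apoptosis, 14 rose and 3 fell (12 and 5 after rescaling), against 33.7% and 11.9% of all genes. The risers took in killers and protectors alike: Apaf1, the core of the apoptosome (1.16), and Fasl (1.25), but also Cflar (0.82) and Bcl2a1b (0.88), which oppose cell death. Bcl2a1b has near-identical paralogs, so its share of the reads is uncertain.

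RefSeq promoter windows of the tested members of the p53 list, called or not, were searched on both strands. A window (GRCm38.p6, the assembly of mm10) ran from 250 bases before to 50 bases after an annotated start. The search was for the consensus of the 10-base unit of which a p53 binding element holds a pair. Windows were found for 28 of the 36 genes, 37 windows in all. At least 1 unit lay in 29.7% of them, in windows of 10 genes, against 6.64% of the 11041 windows of kept genes and 8.36% of all 32851 windows. The list was made of genes that p53 is known to activate, so this excess comes with the list and shows nothing about EGCG. Windows of Cdkn1a, Ccng1 and Bax are printed because these targets are among the most abundant that rose (Ccng1, which encodes cyclin G1, was added after its values were seen, at 437 ± 12.96 TPM with EGCG and 117 ± 17.1 TPM with DMSO). They read in the sense of the gene, and capitals mark single units, not whole elements. The Cdkn1a window at chr17:29090729-29091028, plus strand, belongs to an upstream annotated start and holds 2 matches, while that of the downstream start held none. The Ccng1 window is chr11:40755237-40755536, minus strand, and the Bax window chr7:45466849-45467148, minus strand.
Cdkn1a: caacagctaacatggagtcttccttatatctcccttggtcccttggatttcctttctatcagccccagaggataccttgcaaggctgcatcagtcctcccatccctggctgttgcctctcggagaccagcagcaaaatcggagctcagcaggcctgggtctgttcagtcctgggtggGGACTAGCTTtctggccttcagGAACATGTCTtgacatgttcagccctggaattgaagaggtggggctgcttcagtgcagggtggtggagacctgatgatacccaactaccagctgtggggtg
Ccng1: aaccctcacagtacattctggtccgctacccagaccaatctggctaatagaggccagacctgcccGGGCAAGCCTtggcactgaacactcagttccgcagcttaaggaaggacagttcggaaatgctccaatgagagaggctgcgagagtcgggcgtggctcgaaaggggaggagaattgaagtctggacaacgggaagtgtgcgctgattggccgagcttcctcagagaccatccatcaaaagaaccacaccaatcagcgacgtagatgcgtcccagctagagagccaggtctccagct
Bax: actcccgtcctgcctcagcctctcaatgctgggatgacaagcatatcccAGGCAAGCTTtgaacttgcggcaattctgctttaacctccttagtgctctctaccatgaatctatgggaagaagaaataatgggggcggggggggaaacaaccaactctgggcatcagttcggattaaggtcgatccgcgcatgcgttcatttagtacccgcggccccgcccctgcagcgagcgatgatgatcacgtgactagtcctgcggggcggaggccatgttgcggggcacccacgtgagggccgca
A match is a run of letters and no evidence that p53 was bound there in these cells.

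Genes of G2 and mitosis fell together. Of 34 tested, 0 rose and 29 fell, with a median of -0.51, against 11.9% of all genes called lower. Plk1, the kinase that drives entry into and passage through mitosis, was at 116, 109, 98.7, 109.8 and 94.8 TPM with EGCG and 195, 205, 194 and 210.4 TPM with DMSO (log2 change -0.92, SE 0.0693). Ccnb1, which encodes cyclin B1, was at 243, 202, 183, 225 and 198 TPM with EGCG and 378, 347, 372 and 379 TPM with DMSO. Cdc20, an activator of the anaphase-promoting complex, averaged 189 ± 15.3 TPM with EGCG and 316 ± 16.8 TPM with DMSO, and its partner Ube2c averaged 457 ± 49.6 TPM with EGCG and 728 ± 22.5 TPM with DMSO (SD, n = 5 and 4). For all 4 genes the highest EGCG library was below the lowest DMSO library. Over all genes tested, 38.7% had no overlap in one direction or the other. The means of the 4 genes were 1.59-fold (Ube2c) to 1.90-fold (Plk1) lower with EGCG.

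Promoters of this class are known to carry 2 elements, the CHR (TTTGAA or TTCGAA), bound by the MuvB complexes, and CCAAT boxes, bound by NF-Y. Both strands were searched, and a match to each may share an end base. In the 30 windows found for 28 of the 34 genes, a CHR lay in 83.3%, against 14.2% of the windows of kept genes and 19.2% of all windows. A CCAAT box lay in 86.7%, against 38.5% and 37.4%, and both lay in 76.7%, against 6.16% and 7.52%. The list was made of genes of this class, called or not, so the excess comes with the list and shows nothing about EGCG. The windows of Plk1 (chr7:122159185-122159484, plus strand) and Cdc20 (chr4:118437294-118437593, minus strand) show the arrangement, with the CHR and each CCAAT box in capitals.
Plk1: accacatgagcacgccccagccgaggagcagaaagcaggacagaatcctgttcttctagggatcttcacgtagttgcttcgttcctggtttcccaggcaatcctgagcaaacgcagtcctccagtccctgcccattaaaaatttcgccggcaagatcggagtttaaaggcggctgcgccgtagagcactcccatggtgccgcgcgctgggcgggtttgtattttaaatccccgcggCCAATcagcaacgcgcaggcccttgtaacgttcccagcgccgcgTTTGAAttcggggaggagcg
Cdc20: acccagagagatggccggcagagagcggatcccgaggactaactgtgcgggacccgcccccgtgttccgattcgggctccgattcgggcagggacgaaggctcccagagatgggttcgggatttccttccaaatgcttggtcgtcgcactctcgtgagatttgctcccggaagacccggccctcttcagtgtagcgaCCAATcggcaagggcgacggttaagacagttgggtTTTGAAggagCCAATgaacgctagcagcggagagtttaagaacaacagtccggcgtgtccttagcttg
In both windows a CHR lies within 50 bases of the annotated start and a CCAAT box on its upstream side. Here too a match is no evidence of binding in these cells.

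The genes of G1 and S phase were split: of 40, 11 rose and 14 fell (9 and 19 after rescaling), and the median was -0.01. Mcm2 and Mcm7, subunits of the replication helicase, fell (Mcm2 144 ± 7.34 TPM with EGCG and 217 ± 4.88 TPM with DMSO, Mcm7 253 ± 6.51 TPM with EGCG and 367 ± 4.11 TPM with DMSO). Rfc3, part of the loader of the sliding clamp, fell by 0.69 in log2. On the other side, the genes of cyclin E1, Ccne1 (0.40), and of a ribonucleotide reductase chain, Rrm2 (0.26), rose, both named after their values were seen. Of 61 histone genes tested, taken by name after the values were seen, 1 rose and 20 fell, with a median of -0.51. Histone transcripts of the replication type lack long poly(A) tails and are near-identical in sequence, so levels of single histone genes in these poly(A)-selected libraries are uncertain.

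Early genes of T cell receptor signalling rose. Of 31 tested, 24 rose and 1 fell, with a median of 0.92, against 33.7% of all genes called higher. Il2 (chromosome 3, 37120523 to 37125959, minus strand), the growth factor of activated T cells, was among the most abundant transcripts, at 5967, 5039, 6007, 5703 and 5568 TPM with EGCG and 1568, 1208, 1099 and 1231 TPM with DMSO (log2 change 2.16, SE 0.216). Every EGCG library was far above every DMSO library. Cd69, a surface marker of early activation, was at 387, 327, 348, 361 and 341 TPM with EGCG and 159, 116, 128 and 140.2 TPM with DMSO (log2 change 1.38). Dusp2, a phosphatase of MAP kinases, was at 227, 457, 468, 456 and 368 TPM with EGCG and 29.8, 76.8, 97.2 and 88.9 TPM with DMSO (log2 change 2.50). Ier2 had the same shape, at 219, 302, 321, 301 and 275 TPM with EGCG and 45.6, 105, 129.6 and 117 TPM with DMSO (log2 change 1.59), and in both genes and in both groups replicate 1 was the lowest. Across all 10672 genes, replicate 1 was the lowest of the 4 shared well columns in both groups for 1056 genes and the highest in both for 1284, against 649 to 878 and 648 to 803 for the other columns. Without both libraries of well column 1, every called gene named here was still called except Cd8b1. Egr1 and Nr4a1, named after their values were seen, rose by 1.07 and 0.76, and Nfkbia, the inhibitor and target of NF-kB, by 0.94.

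Of 13 cytokine genes of activated T cells, 7 rose and 3 fell (6 and 4 after rescaling). Penk, which encodes the opioid precursor proenkephalin, was at 21.1, 45.2, 28.4, 39.9 and 40.7 TPM with EGCG and 2.13, 1.42, 0.379 and 0.0993 TPM with DMSO (log2 change 4.24). Areg, a ligand of the EGF receptor, averaged 5.74 ± 0.900 TPM with EGCG and 0.703 ± 0.259 TPM with DMSO (log2 change 1.99), and the lymphotoxin gene Ltb fell by 0.98.

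The TNF family carried several of the strongest increases, and most of its ligands that moved rose. Of 28 ligands and receptors tested, 21 rose and 4 fell, with a median of 0.90. Tnfsf4 (chromosome 1, 161395409 to 161418410, plus strand), the ligand OX40L, was at 59.3, 69.6, 69.4, 61.4 and 62.8 TPM with EGCG and 4.25, 4.15, 5.16 and 3.03 TPM with DMSO, 15.6-fold higher in the mean (log2 change 3.68, 95% interval 3.24 to 4.13, adjusted p = 1.45e-22). Cd70, the ligand of CD27, was at 26.8, 28.9, 33.9, 38.9 and 26.1 TPM with EGCG and 1.89, 1.44, 1.82 and 3.57 TPM with DMSO (log2 change 3.35). Tnfsf11, which encodes RANKL, the ligand that drives osteoclasts, was at 35.3, 67.7, 91.9, 78.2 and 59.8 TPM with EGCG and 3.76, 4.98, 9.25 and 7.21 TPM with DMSO (log2 change 3.20). Replicate 1 was again the lowest in both groups for Tnfsf11, and the groups did not overlap. Tnfsf8, the ligand of CD30, and Cd40lg, both named after their values were seen, averaged 81.1 ± 3.03 and 234 ± 14.3 TPM with EGCG, against 20.8 ± 3.86 and 105 ± 9.92 TPM with DMSO. Receptors were less uniform: Tnfrsf8, which encodes CD30 itself, was at 10.2, 7.84, 5.48, 9.66 and 6.51 TPM with EGCG and 33.1, 42.04, 39.9 and 45.1 TPM with DMSO (log2 change -2.22), so the ligand rose while its receptor fell. Tnfrsf4, the receptor OX40, rose beside its ligand to 1375 ± 64.8 TPM with EGCG, against 679 ± 27.8 TPM with DMSO. The p53-activated receptor genes Eda2r (2.41) and Tnfrsf10b (1.15) rose as well.

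Costimulatory and inhibitory receptors followed the same direction, with 16 of 23 higher and 1 lower and a median of 0.73. Pdcd1, which encodes the inhibitory receptor PD-1, was at 257, 241, 244, 224 and 211 TPM with EGCG and 118, 117, 96.3 and 116 TPM with DMSO (log2 change 1.07). Its ligand gene Cd274 was at 41.3, 38.6, 39.3, 36.6 and 38.1 TPM with EGCG and 15.5, 12.5, 12.6 and 13.04 TPM with DMSO (log2 change 1.47). Cd80, a ligand of CD28 and CTLA-4 and also a p53-activated gene, averaged 10.6 ± 0.903 TPM with EGCG and 1.21 ± 0.173 TPM with DMSO (SD, n = 5 and 4). The call of Cd83 was lost without DMSO replicate 2 (adjusted p = 0.0519), and its values were less even, at 17.4, 27.1, 7.26, 14.6 and 14.99 TPM with EGCG and 4.46, 0.0655, 3.16 and 2.61 TPM with DMSO. The 1 gene of the list that fell was Cd28, the main costimulatory receptor (log2 change -0.47), named after its value was seen.

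Of 27 genes of chemokines, their receptors and integrins, 9 rose and 3 fell (9 and 6 after rescaling), shares near the 33.7% and 11.9% of all genes. Ccl1 was at 8.43, 9.43, 8.53, 17.3 and 2.64 TPM with EGCG and listed at 0.185, 0, 0 and 0 TPM with DMSO (log2 change 3.12, 95% interval 2.16 to 4.09). It was thus seen in every EGCG library and above 0 in a single DMSO library, but at a level that varied over 6-fold among the EGCG libraries. Ccl3, an inflammatory chemokine gene, overlapped between the groups, at 141, 132, 134, 60.96 and 58.03 TPM with EGCG and 52.1, 91.1, 45.2 and 41.8 TPM with DMSO, and did not pass the test (adjusted p = 0.195). The integrin gene Itgb1 rose by 1.39. Genes of naive and resting T cells were split, with 11 higher and 6 lower of 23. The quiescence factors Foxp1 (48.4 ± 8.32 TPM with EGCG and 17.9 ± 3.53 TPM with DMSO) and Bach2 (50.5 ± 2.74 TPM with EGCG and 24.9 ± 2.46 TPM with DMSO) rose, as did Id3 (1.34) and the antiproliferative gene Btg2 (1.21), while Ets1, named after its value was seen, fell by 0.80.

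**Figure D3:**
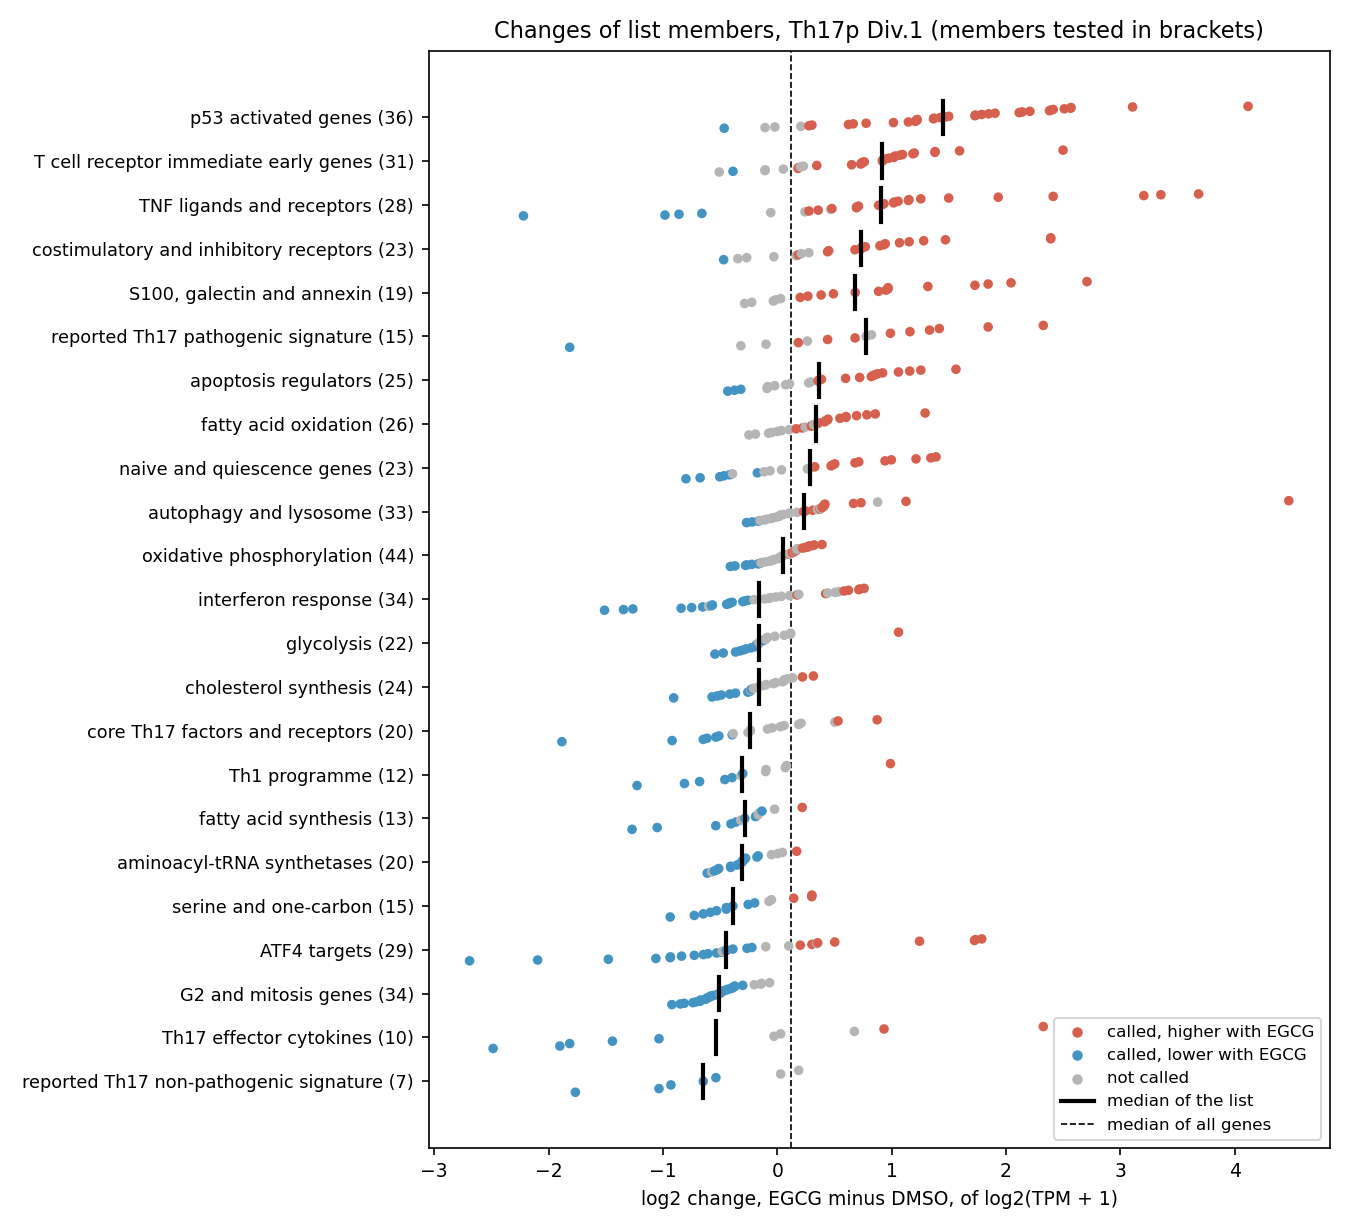
Each point is a tested member of a gene list, by its change with EGCG in Th17p Div.1 cells (x axis, EGCG minus DMSO in log2(TPM + 1)); red members were called higher, blue lower and grey not called, thick bars are list medians and the dashed line the median of all genes at 0.12. The p53 activated genes have a median of 1.45 and the G2 and mitosis genes -0.51.

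Genes of small calcium-binding and cytoskeletal proteins mostly rose. Of 19 S100, galectin and annexin genes and relatives, 14 rose and 0 fell (12 and 1 after rescaling), with a median of 0.68. S100a6 was at 230.03, 233, 199.8, 265 and 261 TPM with EGCG and 43.2, 28.3, 31.6 and 40.4 TPM with DMSO (log2 change 2.71, adjusted p = 4.73e-17). S100a4, its neighbour in the gene cluster, was at 30.01, 23.7, 19.4, 33.3 and 29.8 TPM with EGCG and 6.75, 5.90, 5.57 and 4.88 TPM with DMSO (log2 change 2.04). S100a11 and the intermediate filament gene Vim rose by 1.32 and 0.89. Among protease inhibitors and matrix genes, Serpine2, an inhibitor of thrombin and plasminogen activators, was at 134, 169, 179.8, 159 and 182 TPM with EGCG and 12.1, 5.66, 10.02 and 7.60 TPM with DMSO, 18.6-fold higher in the mean (log2 change 4.11, SE 0.273). The granzyme B inhibitor gene Serpinb9 rose by 1.35. Timp1, an inhibitor of metalloproteinases, fell and was at 194, 189, 164, 196 and 208 TPM with EGCG and 451, 647, 450.4 and 504 TPM with DMSO (log2 change -1.41).

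Another 3 genes rose from low levels. Ak1, which encodes adenylate kinase, averaged 15.8 ± 2.08 TPM with EGCG and 0.807 ± 0.135 TPM with DMSO (log2 change 3.21). Ckmt1, a mitochondrial creatine kinase gene, averaged 10.2 ± 2.27 TPM with EGCG and 0.369 ± 0.106 TPM with DMSO (log2 change 3.02), and Ramp3, a partner of the calcitonin receptor family, 28.8 ± 5.58 TPM with EGCG and 3.55 ± 1.14 TPM with DMSO. Of those that fell furthest, Tgm2, the tissue transglutaminase gene, was at 8.24, 10.1, 5.96, 8.70 and 7.56 TPM with EGCG and 42.3, 38.8, 47.3 and 45.8 TPM with DMSO (log2 change -2.30). Ildr1 was at 0.649, 0.289, 0.720, 0.908 and 0.293 TPM with EGCG and 7.68, 16.7, 10.9 and 9.28 TPM with DMSO (log2 change -2.92), and Plac8 averaged 3.58 ± 2.004 TPM with EGCG and 21.1 ± 5.81 TPM with DMSO (SD, n = 5 and 4).

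Interferon-response genes moved both ways, and Ifi47 and Gbp2, of families of GTPases that act against vacuolar pathogens, fell. Of 34 tested, 7 rose and 15 fell, with a median of -0.16. Ifi47 was at 50.02, 46.8, 40.05, 51.8 and 47.9 TPM with EGCG and 134, 103, 125 and 126 TPM with DMSO (log2 change -1.35, adjusted p = 8.58e-25). Gbp2 was at 133, 118, 101, 126 and 123 TPM with EGCG and 286, 269, 291 and 309.6 TPM with DMSO (log2 change -1.26). Psmb8, an immunoproteasome subunit, fell by 0.44, while Tap1, the peptide transporter gene and a p53-activated gene, rose by 0.62.

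Metabolic lists moved in opposite directions for synthesis and breakdown of fatty acids. Of 26 genes of fatty acid oxidation, 17 rose and 0 fell (15 and 1 after rescaling), against 33.7% and 11.9% of all genes. The median was 0.33 (0.23 after rescaling). Acad11, an acyl-CoA dehydrogenase gene, was at 14.9, 18.4, 20.2, 15.3 and 13.4 TPM with EGCG and 6.18, 5.33, 6.36 and 6.37 TPM with DMSO (log2 change 1.29), and the carnitine carrier gene Slc25a20 rose by 0.60. Of 13 genes of fatty acid synthesis, 1 rose and 8 fell (0 and 9 after rescaling; median -0.28). The desaturase gene Scd2 was at 40.5, 37.4, 30.9, 47.5 and 43.4 TPM with EGCG and 74.9, 89.2, 80.4 and 88.5 TPM with DMSO (log2 change -1.05), and Scd1 at 2.76 ± 0.447 TPM with EGCG and 8.02 ± 0.386 TPM with DMSO. In cholesterol synthesis, 2 of 24 rose and 9 fell (0 and 16 after rescaling), among them Fdps, the farnesyl diphosphate synthase gene (243 ± 13.6 TPM with EGCG and 456 ± 24.6 TPM with DMSO, log2 change -0.91).

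In glycolysis, 1 of 22 genes rose and 12 fell, with a median of -0.16. Aldoa, the aldolase gene, fell to 1542 ± 46.1 TPM with EGCG, against 2251 ± 106 TPM with DMSO (log2 change -0.55), and Hk2, a hexokinase gene, and Pgam1 fell with it (log2 changes -0.47 and -0.30). The 1 gene that rose was Ldhb, the lactate dehydrogenase chain of oxidative tissues, at 104, 96.9, 128, 115 and 116 TPM with EGCG and 53.8, 44.9, 57.4 and 56.5 TPM with DMSO (log2 change 1.06). The pentose phosphate and NADPH list had 2 rises and 3 falls among 14 genes (2 and 5 after rescaling) and a median of 0.06 (-0.04 after rescaling). G6pdx, the entry enzyme, was at 57.3, 57.5, 51.8, 58.3 and 56.7 TPM with EGCG and 68.7, 67.7, 70.4 and 70.4 TPM with DMSO (log2 change -0.30, adjusted p = 6.08e-05). Dcxr, which reduces L-xylulose with NADPH and is also on the p53 list, was at 70.7, 74.6, 81.8, 86.5 and 79.7 TPM with EGCG and 11.96, 15.6, 10.8 and 13.9 TPM with DMSO (log2 change 2.51). Of 44 oxidative phosphorylation genes, 14 rose and 7 fell, shares near those of all genes, and the split turned round with the scaling (3 and 18 after rescaling; median 0.05, and -0.07 after rescaling).

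Genes of amino acid supply and of the ATF4 stress response, which is switched on when amino acids run short, mostly fell. Of 29 ATF4 targets, 8 rose and 17 fell (median -0.45). Chac1, which degrades glutathione, was at 1.09, 0.591, 0.545, 0.752 and 1.16 TPM with EGCG and 9.52, 13.6, 6.35 and 15.6 TPM with DMSO (log2 change -2.69). Trib3, a pseudokinase gene, was at 1.24, 1.09, 2.05, 1.74 and 1.60 TPM with EGCG and 6.30, 13.2, 7.03 and 15.3 TPM with DMSO (log2 change -2.10). Sesn2 and Ddit4, which restrain mTORC1 and are also on the p53 list, went the other way: Sesn2 averaged 38.9 ± 2.09 TPM with EGCG and 10.6 ± 0.644 TPM with DMSO (log2 change 1.79), and Ddit4 39.4 ± 6.30 TPM with EGCG and 11.4 ± 3.27 TPM with DMSO (log2 change 1.73). Of 15 genes of serine synthesis and one-carbon units, 3 rose and 10 fell, among them Shmt2 (-0.73) and Phgdh (-0.65). Of 20 genes of aminoacyl-tRNA synthetases, 1 rose and 15 fell (median -0.31), and of 19 heat shock chaperone genes, 1 rose and 10 fell. Hspa8, the abundant constitutive chaperone HSC70, was at 3776, 3556, 3582, 3559 and 3632 TPM with EGCG and 5682, 5849.9, 5650.4 and 5698 TPM with DMSO (log2 change -0.66).

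Other stress lists held single large movers. Their counts stand beside 33.7% of all genes called higher and 11.9% called lower. Among 20 hypoxia genes 10 rose and 3 fell (7 and 6 after rescaling): Egln3, an oxygen-sensing prolyl hydroxylase gene, was at 11.6, 12.2, 12.3, 15.4 and 14.8 TPM with EGCG and 46.5, 48.6, 49.7 and 44.7 TPM with DMSO (log2 change -1.77), while Plod2, which hydroxylates collagen lysines, rose by 1.85. Mt1, a metallothionein gene that binds zinc, was at 71.5, 65.7, 64.8, 87.9 and 52.6 TPM with EGCG and 154, 212, 141 and 163 TPM with DMSO (log2 change -1.28), and Mt2 fell with it (-0.91). NRF2 is a transcription factor of the response to electrophiles, and catechins are known to engage it in other cells. Of its 30 targets tested, 6 rose and 9 fell (2 and 14 after rescaling), with a median of -0.03. Ephx1, an epoxide hydrolase gene also on the p53 list, rose by 1.85 and Gpx1 by 0.57, whereas the biliverdin reductase gene Blvrb fell by 0.79, a call that was lost without EGCG replicate 5 (adjusted p = 0.0658). In polyamine metabolism 6 of 15 rose and 5 fell (3 and 6 after rescaling), and Srm, spermidine synthase, was lowest in replicate 1 of both groups (408, 707, 904, 827 and 739 TPM with EGCG and 162, 295, 381 and 356 TPM with DMSO, log2 change 1.28).

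The remaining lists held few large changes, and their counts stand beside the same 33.7% and 11.9% of all genes. Of 19 genes of TGFb receptors, signal relays and targets, 8 rose and 1 fell (6 and 2 after rescaling, median 0.19). Id1 was higher by 0.65 (not called with well A4 as labelled, adjusted p = 0.113), and the signal relay gene Smad3 was at -0.73. Of 6 genes tested of the aryl hydrocarbon receptor list, 0 rose and 2 fell, the receptor gene Ahr itself and the target Tiparp (-0.59). Of 9 targets of the sterol receptor LXR, 0 rose and 4 fell, among them the cholesterol exporter gene Abcg1 (-0.83). Some counts depended on the scaling. Of 21 genes of the unfolded protein response, 4 rose and 4 fell (3 and 7 after rescaling), and of 35 of ribosome biogenesis, 6 rose and 11 fell (3 and 22 after rescaling). Of 20 genes of the tricarboxylic acid cycle, 7 rose and 3 fell (1 and 9 after rescaling), so the direction turned round, and of 11 of iron uptake and storage, 3 rose and 1 fell (1 and 1 after rescaling). Of 5 MHC class II genes, 3 rose, H2-Eb1 among them at a low level of 2.40 ± 0.822 TPM with EGCG and 0.347 ± 0.197 TPM with DMSO. Of 14 genes of T cell identity, 9 rose and 3 fell, among them the receptor chain gene Cd3e, higher by 0.39.

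**Figure D4:**
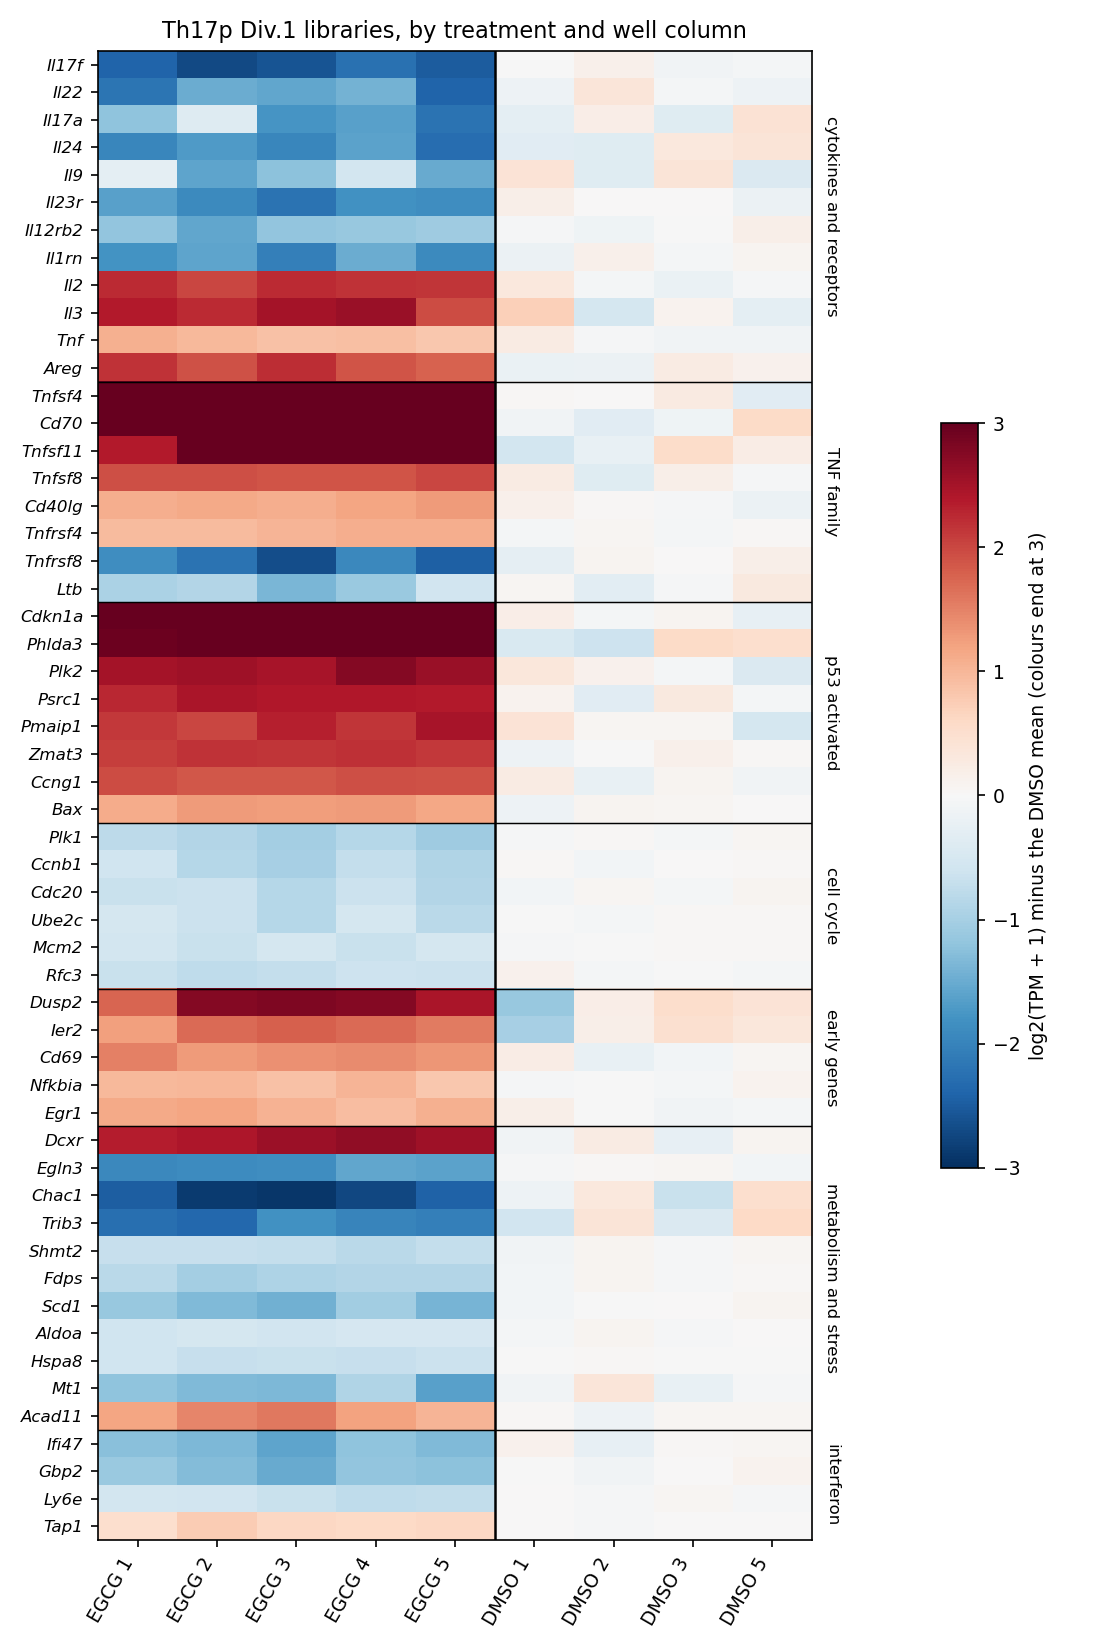
Each cell is log2(TPM + 1) of a gene (rows, grouped by function) in 1 of the 9 libraries (columns, numbered by well column, EGCG left of DMSO) minus the mean of the DMSO libraries; red is higher, blue lower, and colours end at 3. The EGCG libraries share their direction in nearly every row, and Dusp2 and Ier2 are lowest in replicate 1 of both groups.

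Lamp1 (chromosome 8, 13159161 to 13175338, plus strand), which encodes a membrane protein of lysosomes, had the largest fitted increase of the genes named and uneven control values. It was at 51.2, 102, 117, 114 and 93.3 TPM with EGCG and 0.731, 32.8, 1.27 and 1.31 TPM with DMSO, so that DMSO replicate 2 carried over 20 times as much as each of the other DMSO libraries (log2 change 4.47, 95% interval 3.45 to 5.50). Other genes of autophagy and the lysosome moved less: of 33, 14 rose and 3 fell (12 and 7 after rescaling), with a median of 0.23. Ctsd, the cathepsin D gene, averaged 187 ± 6.49 TPM with EGCG and 117 ± 3.14 TPM with DMSO (log2 change 0.67).

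The effect of EGCG in cells of exactly 1 division was then set against its effect in unsorted Th17p cells, by a test of the difference between the 2 effects in the same fit. The sorts used separate DMSO libraries, and the labels do not say whether the sorted cells were taken from the same cultures as the unsorted ones. Of 10672 genes, 274 (2.57%) differed, 144 with a higher and 130 with a lower log2 change in Div.1. Il1rn changed by -1.77 in Div.1 and -3.23 in Total (difference 1.46, SE 0.415, adjusted p = 0.0359), but its adjusted p was 0.0700 with no filter on low values and reached 0.0820 on leaving out single libraries, 10 of which ended the call. In Total it averaged 1.81 ± 0.926 TPM with EGCG and 24.8 ± 6.13 TPM with DMSO. Mt1 likewise changed by -1.28 in Div.1 and -2.59 in Total (difference 1.31, adjusted p = 0.000102), with 59.4 ± 12.5 TPM with EGCG and 359 ± 53.2 TPM with DMSO in Total. Pdzk1ip1, which encodes a small membrane protein, changed by 0.80 in Div.1 and -0.83 in Total (adjusted p = 0.00032, 0.101 with a pseudocount of 0.1 and 0.0874 with well A4 as labelled), and Lamp1 by 4.47 and 1.22 (adjusted p = 0.00384). Lower in Div.1 than in Total were histone genes: Hist1h2ai changed by -1.48 against 1.64 (adjusted p = 2.13e-08), Hist1h2bj by -1.27 against -0.05, Hist1h3e by -1.06 against 0.22 and Hist1h2bn by -1.15 against 0.11. The difference for Hist1h2bn (adjusted p = 0.0485) was lost in a fit of the 4 groups alone (0.0857) and on leaving out most single libraries (up to 0.116). That for Hist1h3e (adjusted p = 0.0232) was lost without Total DMSO replicate 3 (0.0808), Total EGCG replicate 5 (0.0676) or Div.1 DMSO replicate 2 (0.0553). Of the 61 histone genes 8 differed, all 8 lower in Div.1. Against that share of 2.57%, the test of the difference called 6 of 40 G1 and S phase genes, 4 of 34 interferon-response genes, 3 of 20 Th17 factors and receptors and 3 of 14 genes of the IL-1 and IL-18 pathway. Also called were 3 of 7 genes of the non-pathogenic list, 3 of 14 of T cell identity and 3 of 19 S100, galectin and annexin genes. Lists share members, and these are not all the lists with calls. By limma the test of the difference called 0 of 36 p53 activated genes (4 at an unadjusted p under 0.05), 0 of 28 of the TNF family (5 unadjusted), 0 of 31 receptor early genes (5 unadjusted) and 0 of 10 effector cytokines (2 unadjusted). Over all genes 1639 had an unadjusted p under 0.05.

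Between the Th17 types the effects of EGCG differed far more often: 1867 of 10672 genes (17.5%) differed between Th17p and Th17n Div.1 cells, 973 with a higher and 894 with a lower change in Th17p. The IL-17 and IL-22 genes moved in opposite directions. Il17f changed by -2.49 in Th17p and 0.98 in Th17n cells (adjusted p in Th17n = 0.000131, difference -3.46, SE 0.294, adjusted p = 1.93e-14), and in Th17n cells it averaged 7597 ± 554 TPM with EGCG and 3867 ± 354 TPM with DMSO (SD, n = 5 and 4). Il22 changed by -1.82 in Th17p and 2.10 in Th17n cells (adjusted p in Th17n = 8.94e-05, difference -3.92, adjusted p = 2.19e-06), where it was at a much lower level of 10.8 ± 7.39 TPM with EGCG and 2.32 ± 3.39 TPM with DMSO. The difference for Il22 did not pass the test when the library of well A4 was counted as labelled (-2.45, adjusted p = 0.0739). That library held 388 TPM of Il22, against 0.303 to 7.36 TPM in the other Th17n DMSO Div.1 libraries. Il17a changed by -1.44 in Th17p and 1.67 in Th17n cells (adjusted p in Th17n = 0.00361, of the difference 0.000314), and Ildr1 by -2.92 and -0.19 (adjusted p = 4.69e-09). Genes that changed further upward in Th17p were Lamp1 (4.47 in Th17p, -0.88 in Th17n), Ccl1 (3.12 in Th17p), Dusp2 (2.50 in Th17p, -0.53 in Th17n) and Scand1 (1.86 in Th17p, -0.82 in Th17n). Ccl1 was close to 0 in Th17n cells, at 0.117 ± 0.263 TPM with EGCG and 0.0634 ± 0.127 TPM with DMSO. Of the p53 activated genes 14 of 36 differed between the types and of the G2 and mitosis genes 23 of 34. Cdkn1a was among the genes that rose in both, by 3.11 in Th17p and 3.43 in Th17n cells (adjusted p of the difference = 0.433), and Plk1 changed by -0.92 and -0.40 (adjusted p of the difference = 5.37e-05).

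**Figure D5:**
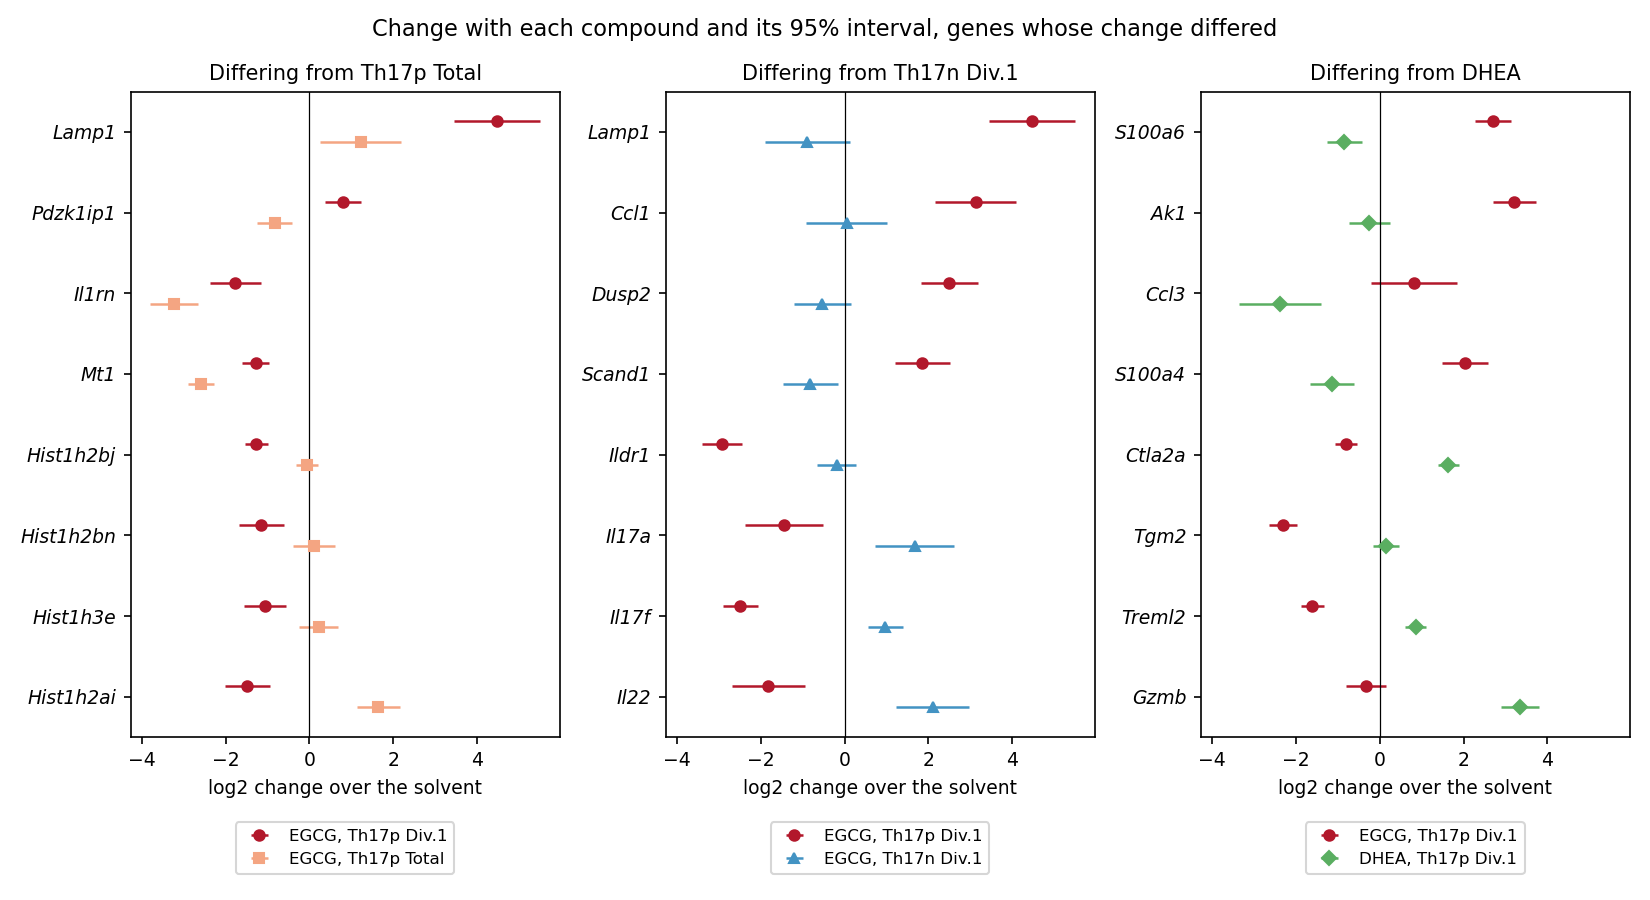
Log2 changes over the solvent (points) with 95% intervals from the fit (bars) for the 8 named genes of each comparison of effects: EGCG in Th17p Div.1 (red circles, upper of each pair) beside EGCG in Th17p Total (left), EGCG in Th17n Div.1 (middle) and DHEA in Th17p Div.1 (right). Il17f, Il17a and Il22 lie below 0 in Th17p and above 0 in Th17n cells, and Gzmb lies at -0.32 with EGCG and 3.35 with DHEA.

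DHEA, a steroid hormone precursor, was given at another dose and in another solvent, so the comparison with EGCG sets 2 treatments side by side and not 2 molecules at matched exposure. In Th17p Div.1 cells 3360 of 10672 genes (31.5%) differed between the changes with EGCG and with DHEA, 2544 with a higher and 816 with a lower change with EGCG. Il17f, Il22 and Il23r were lower with either, at -2.49, -1.82 and -1.88 with EGCG and -2.57, -2.61 and -2.82 with DHEA. The difference passed the test for Il23r (adjusted p = 0.00582) and not for Il17f (0.09, adjusted p = 0.86) or Il22 (0.80, adjusted p = 0.337). S100a6 changed by 2.71 with EGCG and -0.84 with DHEA (difference 3.55, SE 0.298, adjusted p = 1.8e-15), and S100a4 by 2.04 and -1.13 (adjusted p = 4.78e-10). Ak1 changed by 3.21 with EGCG and -0.24 with DHEA, and Ccl3 by 0.82 and -2.37. Gzmb, the gene of the cytotoxic protease granzyme B, changed by -0.32 with EGCG (adjusted p = 0.284, and 0.0488 without DMSO replicate 2) and 3.35 with DHEA (difference -3.66, adjusted p = 1.96e-14), where it averaged 98.1 ± 23.7 TPM with DHEA and 8.80 ± 2.53 TPM with methanol (SD, n = 5 each). Tgm2 changed by -2.30 with EGCG and 0.15 with DHEA, Treml2 by -1.60 and 0.86, and Ctla2a by -0.81 and 1.64. Of the p53 activated genes 30 of 36 differed: Cdkn1a changed by 3.11 with EGCG and 1.55 with DHEA, and Mdm2 by 1.22 and 0.27.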

How the data were processed

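RNA-seq libraries of polyadenylated RNA went through Trimmomatic and then kallisto, with mm10 as the genome build, per the submitters' processing notes, and versions were not given in the sources used here. The authors deposited 1 table of TPM, with 1 value per gene symbol and library, for 20465 symbols. How transcripts were summed to symbols is not stated, and no mitochondrially encoded genes are in it. TPM keep no depth, and reads shared by paralogs or overlapping genes cannot be resolved from them.

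Groups came from the library titles. Values were taken as log2(TPM + 1), which understates changes of genes at low TPM. The 16 group means of 78 libraries (well A4 out) were fitted with limma (version 3.58.1, under R 4.3.3), with moderated variances that follow a trend in level, on 10672 genes that 4 or more libraries held at 1 TPM or above. Tests were two-sided with Benjamini-Hochberg adjustment over all genes tested within a comparison. Groups held 4 or 5 libraries, and p-values measure only the spread between libraries of a group, which may in part be technical. That spread was pooled over all 16 groups, so it also takes in libraries outside each comparison. Well columns were not used as pairs in the main fit, because the labels do not tie libraries to mice. Deviations from the group means of libraries with the same number correlated at 0.207, 0.0451, 0.0776 and 0.0781. Those of libraries with other numbers correlated at -0.119 to 0.0605, so a pairing that the main fit leaves out is possible. The procedure was tested on simulated data. Tables were made in Python 3.11.15 (numpy 2.4.6, pandas 2.3.3) and figures in matplotlib 3.10.9. Gene positions are those of GENCODE vM21.

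The members and the gene lists were chosen with earlier results of these data known, and the lists are described by counts and medians with no test of their own. Named genes are among the 12 largest called increases and the 12 largest called decreases without overlap and with 5 TPM or more in the higher group, up to 6 members of each list by p and size, 4 genes each way for each difference of effects, and a fixed set of cytokine genes, factors and enzymes, with predicted genes left aside. A gene of that set is not reported here. Alternatives were a pseudocount of 0.1, no filter, rescaled TPM, a replicate block of well columns, a fit of only the groups compared, well A4 as labelled, and leaving out each library. Well A4 as labelled joins the Th17n DMSO Div.1 group, so for EGCG in Th17p Div.1 cells it changes only the variance estimates. Leaving out both libraries of well column 1 was added after seeing the data.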

Additional observations from a re-analysis of the deposited data

Results flagged for a closer look

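In 21 of 308 groups of libraries tested, 1 library stood far from the others for a gene named in the report, and chance sets apart about 1 group in 20. Among the EGCG libraries, replicate 1 was low for Hist1h2ai (3.87 TPM), Scand1 (13.6 TPM) and Stat4 (63.2 TPM) and high for Ckap2 (29.3 TPM). Replicate 2 was low for Il12rb2 (17.3 TPM) and high for Fasl (7.88 TPM) and Il10 (0.358 TPM). Replicate 3 was low for G6pdx (51.8 TPM) and high for Nr4a1 (189.9 TPM), and replicate 4 was high for Foxp3 (0.5003 TPM). Replicate 5 was low for Blvrb (1.53 TPM) and Ccne1 (119.6 TPM) and high for Treml2 (3.98 TPM).

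Among the DMSO libraries, replicate 1 was high for Ccl1 (0.185 TPM) and Tnf (108 TPM), and replicate 2 for Il22 (380.1 TPM) and Lamp1 (32.8 TPM). Replicate 3 was high for Ckmt1 (0.526 TPM) and Sulf2 (0.432 TPM) and low for Pdcd1 (96.3 TPM), and replicate 5 was high for Foxp3 (0.766 TPM). The call of Blvrb was the only one among these genes lost without the library set apart.

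The change with EGCG in Th17p Div.1 cells differed from that in unsorted cells by the test of the difference. It was higher in Div.1 for Lamp1 (difference 3.25), Pdzk1ip1 (1.63), Il1rn (1.46) and Mt1 (1.31), and lower for Hist1h2ai (-3.12), Hist1h3e (-1.28), Hist1h2bn (-1.25) and Hist1h2bj (-1.21). Against the Th17n cells, it was higher in Th17p for Lamp1 (5.36), Ccl1 (3.07), Dusp2 (3.02) and Scand1 (2.67), and lower for Il22 (-3.92), Il17f (-3.46), Il17a (-3.11) and Ildr1 (-2.73). Against DHEA, the change with EGCG was higher for S100a6 (3.55), Ak1 (3.45), Ccl3 (3.20) and S100a4 (3.17), and lower for Gzmb (-3.66), Treml2 (-2.46), Tgm2 (-2.46) and Ctla2a (-2.45).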

How the results depend on the processing

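Of the named genes called for EGCG in Th17p Div.1 cells, 148 in all, none changed sign under any alternative run, and calls lost or gained are given beside the genes above, except 4: the change of Pdzk1ip1 in Div.1 was lost with a pseudocount of 0.1 (adjusted p = 0.0995) and with well A4 as labelled (0.0780), that of Il9 with a pseudocount of 0.1 (0.0672), and that of Blvrb in a fit of the groups alone (0.0618). The count of genes called, 4871, was 4793 with a pseudocount of 0.1, 4979 with no filter, 4671 after rescaling (2241 of them lower), 4972 in a fit of the groups compared alone, 4677 with well A4 as labelled and 4344 without well column 1. Leaving out single libraries gave 4453 to 4711 calls, 3284 to 3441 of them higher and 1130 to 1270 lower. The difference from unsorted cells, 274 genes, was the least stable count: 373 after rescaling, 479 in a fit of the groups alone, 160 with well A4 as labelled and 190 to 318 on leaving out single libraries. The differences from Th17n cells and from DHEA gave 1571 to 1965 and 3122 to 3328 genes on leaving out single libraries. The cause of these shifts was not tested.

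With the well column as a replicate block the counts were 5161 for EGCG in Th17p Div.1 cells, 669 for the difference from unsorted cells, 2267 for that from Th17n cells and 3800 for that from DHEA, and no call of a named gene for EGCG in Th17p Div.1 cells was lost or gained. In all 4 pairs each library correlated best with the one of its own number, a hint from the data and not from the design. TPM keep no depth, so the lowest change that these libraries could show is unknown.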
